A study of Mus musculus with 2 samples.

Results

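Folate uptake and one-carbon metabolism were followed through 8 genes, which were chosen by symbol, with earlier results of these data known. The genes were the folate carriers Folr1, Slc19a1 and Slc46a1, the cytosolic enzyme Mthfd1, and the mitochondrial enzymes Shmt2, Mthfd2, Mthfd1l and Gldc. They are 8 of the 43346 annotated genes in the deposited gene tables. The tissue was whole forebrain of healthy mouse embryos of the inbred strain B6NCrl at 10.5 days of development, with males and females pooled and no treatment or mutant allele named in the labels. Each library was made from 10 ng of total RNA, from 69 embryos for replicate 1 and, in another pool, from 51 embryos for replicate 2. The labels give separate biosamples but the same donor ID for both libraries, which were read here as separate pools of the strain. The 2 libraries formed the only group, so genes were compared with each other inside each library and then across the 2 pools. A pool averages over its embryos and over all cell types of the forebrain, and in such bulk RNA fewer cells of a type and less RNA per cell cannot be told apart. Over 2 libraries an exact two-sided test cannot go below p = 0.5, so no test is given, and spread is the SD between the 2 pools.

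Folate carries single-carbon units between serine, glycine and formate and the synthesis of thymidylate, purines and methionine. In the mitochondrion, Shmt2 and the glycine cleavage system load the carbon of serine and glycine onto tetrahydrofolate, Mthfd2 oxidises it and Mthfd1l releases it as formate, which Mthfd1 takes up again in the cytosol. A growing neural tube depends on this supply for DNA synthesis. Loss of the folate receptor Folr1, of Mthfd1l or of Gldc in mice is known to be able to leave the neural tube open, and folate taken by the mother is known to lower the frequency of such defects.

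The libraries held 43021202 and 39215064 expected counts (estimated reads per gene), of which 41537304 and 38012457 lay in annotated genes. Levels are given as TPM, a share of all transcripts after division by length, which allows genes to be compared with each other. Forebrain markers were detected for 7 of 8 genes, led by Lhx2 at 91.7 and 98.3 TPM, and their levels summed to 321.4 and 317.5 TPM in replicates 1 and 2. None of the 7 hindbrain and spinal cord markers, and none of the 6 yolk sac endoderm markers, reached 1 TPM. Other cell types were present in both pools. The summed levels were 17376 and 12868 TPM for 6 of 6 erythroid markers, 82.3 and 85.3 for 6 of 6 endothelial markers, 48.8 and 46.2 for 7 of 7 macrophage markers, 446.7 and 444.5 for 7 of 8 mesenchyme and neural crest markers, and 133.3 and 126.6 for 6 of 6 surface epithelial markers. The mesenchyme and neural crest sum was led by Col3a1, at 250.9 TPM in both libraries. The marker of that list not detected was Foxd3, at 0.06 and 0.09 TPM. How much of each folate gene came from these other cell types was not tested.

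All 8 genes were detected, at 1 TPM or more in both libraries, against 32.4% of all annotated genes and 57.3% of protein-coding genes. Their median level was 38.9 TPM in replicate 1 and 36.7 in replicate 2, where the 12315 detected protein-coding genes had medians of 20.0 and 20.3. The levels ran from Folr1, at 10.7 ± 0.792 TPM (SD, n = 2), to Shmt2, at 94.0 ± 2.57. From highest to lowest the order was Shmt2, Mthfd1, Mthfd2, Gldc, Slc19a1, Mthfd1l, Slc46a1 and Folr1, and it was the same in both libraries. Each of the 7 neighbouring pairs had ranges over the libraries that did not overlap. The narrowest step was from Mthfd1 to Shmt2, 1.12-fold on the mean TPM, and the widest was from Folr1 to Slc46a1, 1.68-fold. The authors' own TPM intervals, whose level the files do not state, overlapped for a single neighbouring pair in a single library, Gldc and Slc19a1 in replicate 1.

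**Figure D1:**
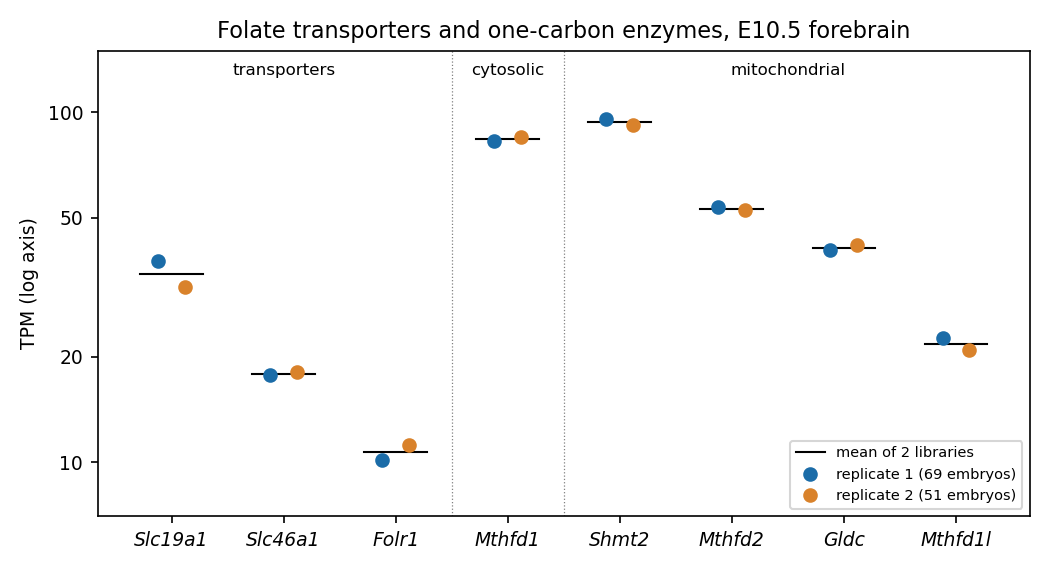
TPM on a log axis for the 3 transporter genes, the cytosolic enzyme gene and the 4 mitochondrial enzyme genes, with a point per library (replicate 1, 69 embryos; replicate 2, 51 embryos) and a line at their mean. The enzyme genes Shmt2 and Mthfd1 lie above 80 TPM, Folr1 lies near 10 TPM, and the widest gap between libraries is that of Slc19a1.

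The 3 carriers lay below most of the enzymes. Their median was 17.8 TPM in replicate 1 and 18.0 in replicate 2, where the 5 enzymes had medians of 53.7 and 52.4. On the log2(TPM + 0.1) scale the enzyme median exceeded the carrier median by 1.59 in replicate 1 and 1.53 in replicate 2, a mean of 1.56 ± 0.042 and a 2.95-fold difference. The groups overlapped nevertheless: the carrier Slc19a1 was higher than the enzyme Mthfd1l in both libraries, by 1.59-fold on the mean TPM. Because the genes differ in length, the same difference in expected counts not divided by length was larger, 2.35 on the log2 scale.

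Slc19a1 (ENSMUSG00000001436) encodes the reduced folate carrier, an exchanger that brings folate into most cells at neutral pH. It was the most abundant of the 3 carriers, with 37.5 TPM from 2031 expected counts in replicate 1 and 31.7 TPM from 1647 in replicate 2. This was the widest spread between the pools among the 8 genes, 34.6 ± 4.10 TPM. Part of the gap in TPM lay in the length by which it was divided, since the effective length of the gene rose from 1958 to 2084 bases with the mix of transcripts. In expected counts, which carry no length, replicate 2 stood at 0.891 of replicate 1 after TMM scaling for library size.

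The gene spans chr10:77032241-77061002 on the plus strand (GRCm38) and 6 of its 9 transcripts were above 0. Its most abundant transcript, ENSMUST00000105410.5, held 73.0% of the gene's TPM in replicate 1 and 72.7% in replicate 2. This transcript starts at base 77033212. A second transcript with a start upstream, at base 77032684 (ENSMUST00000144234.3), held 6.90% in replicate 1 and 15.0% in replicate 2, from 158.2 and 261.8 expected counts. The share of the leading transcript was thus nearly level between the pools while that of the upstream transcript was not. Other transcripts were not added to these shares. Of them ENSMUST00000132984.1, which starts at base 77033319, held 7.23% in replicate 1 and 3.59% in replicate 2. Protein-coding transcripts together made up 91.2% and 94.2% of Slc19a1 TPM.

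RefSeq lists the start of the leading transcript and a start upstream at base 77032739, whose window holds the start of ENSMUST00000144234.3. Both promoter windows are shown, each from 250 bases before to 50 after the RefSeq start on the plus strand of GRCm38.p6. Capitals mark matches, on either strand, to any of 6 motifs: the CCAAT box (CCAAT), the E-box (letters CACGTG), the GC box (letters GGGCGG), the core of the ATF4 element (TGATGNAA), the CRE core (letters TGACGT) and the NRF1 core (GCATGCGC). Over all 32851 RefSeq windows of the same length these occurred in 37.4%, 7.15%, 35.7%, 3.97%, 7.51% and 2.71% respectively.
Slc19a1 upstream start, chr10:77032489-77032788: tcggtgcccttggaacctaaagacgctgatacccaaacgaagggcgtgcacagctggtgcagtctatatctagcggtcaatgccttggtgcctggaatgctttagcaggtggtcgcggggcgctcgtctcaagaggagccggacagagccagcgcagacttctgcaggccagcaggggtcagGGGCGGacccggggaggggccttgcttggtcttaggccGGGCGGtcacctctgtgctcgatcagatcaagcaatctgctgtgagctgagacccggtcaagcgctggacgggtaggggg
Slc19a1 downstream start, chr10:77032962-77033261: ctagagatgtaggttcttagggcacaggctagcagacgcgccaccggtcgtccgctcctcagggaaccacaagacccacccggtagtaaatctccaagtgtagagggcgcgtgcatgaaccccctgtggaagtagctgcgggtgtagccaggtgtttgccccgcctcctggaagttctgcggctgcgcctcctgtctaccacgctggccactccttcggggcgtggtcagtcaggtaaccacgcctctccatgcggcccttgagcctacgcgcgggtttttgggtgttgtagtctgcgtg
The upstream window held 19 CpG and 2 GC boxes, and the downstream window, in which the leading transcript begins, held 21 CpG and none of the 6 motifs. Both lay above the median window, which held 7 CpG. A motif match describes letters and not binding, and a window without a match says only that those letters are not in it.

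Slc46a1 (ENSMUSG00000020829, chr11:78465697-78472059, plus strand) encodes the proton-coupled folate transporter, which works best at acid pH and is best known for folate absorption in the gut. It had 17.8 TPM (823 expected counts) in replicate 1 and 18.0 TPM (722) in replicate 2, the smallest SD in TPM of the 8 genes. The effective length of the gene fell from 1676 to 1604 bases between the libraries, which raised its TPM in replicate 2. In expected counts replicate 2 stood at 0.964 of replicate 1 after TMM scaling. Against Slc19a1, Slc46a1 stood at -1.07 and -0.81 on the log2 scale, 1.92-fold lower on the mean. Its protein-coding transcript ENSMUST00000001126.3 held 78.6% and 72.6% of its TPM. A transcript annotated for nonsense-mediated decay, ENSMUST00000146431.2, held 15.9% and 21.7%, and a retained intron held the rest. Slc46a1 therefore had the lowest protein-coding share of the 8 genes, and its coding transcript alone stood at 13.9 and 13.1 TPM.

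Folr1 (ENSMUSG00000001827, chr7:101858331-101870788, minus strand) encodes folate receptor alpha, a lipid-anchored protein of the cell surface that binds folate tightly and brings it in by endocytosis. It was the lowest of the 8 genes, with 10.1 TPM in replicate 1 and 11.2 in replicate 2, resting on 180 and 179 expected counts. The authors' intervals around these values were 8.34 to 12.2 TPM and 9.23 to 13.7 TPM and overlapped widely. Against Slc19a1 it stood at -1.88 and -1.49 on the log2 scale, 3.22-fold lower on the mean, and against Slc46a1 at -0.81 and -0.68, 1.67-fold lower. In expected counts not divided by length these differences were -3.35 and -2.10. Over protein-coding transcripts only, the gap to Slc46a1 narrowed to -0.34 ± 0.17 on the log2 scale. That setting treats short transcripts of the pair unevenly. It removes a 749-base decay transcript of Slc46a1, at 2.82 and 3.91 TPM. It keeps a 350-base transcript of Folr1 annotated as coding, at 1.59 and 3.81 TPM. Folr1 exceeded its paralog Folr2, which is best known from macrophages, by 3.67 and 4.26 on the log2 scale, 15.6-fold, with 0.70 and 0.49 TPM of Folr2 from 19 and 12 counts. With a pseudocount of 1 the mean of that difference was 2.87 in place of 3.97.

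Folr1 had the most divided transcripts of the 8 genes. Of 17 annotated transcripts 9 were above 0. The leading ENSMUST00000106981.3 held 61.0% of its TPM in replicate 1 and 52.3% in replicate 2, and the second, ENSMUST00000123321.3, held 15.8% and 33.9% from 11.0 and 23.8 expected counts. At this depth the split beyond the leading transcript rests on few reads. The TPM of the gene depends on that split as well. The leading transcript, of 960 bases, held 147 and 126 expected counts but 6.16 and 5.86 TPM, and the second is 350 bases long. Folr1 is also a marker of the choroid plexus, the folate-secreting epithelium of the brain's ventricles. The other genes of that marker list were Otx2, at 56.0 and 48.8 TPM, and Ttr, Kl and Aqp1, each of which was under 1 TPM in both libraries.

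**Figure D2:**
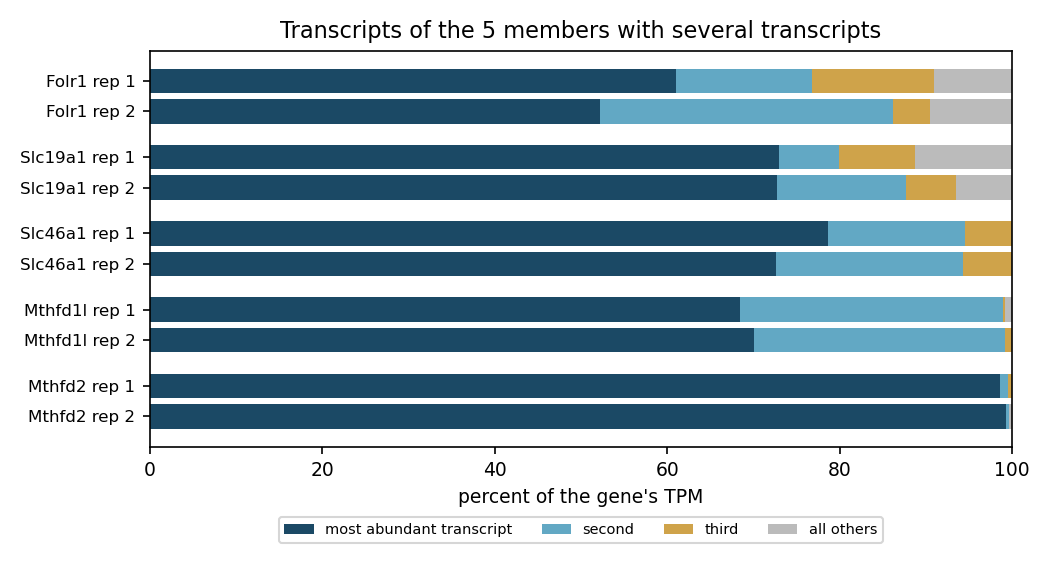
Percent of the gene's TPM (x axis) in the most abundant transcript, the second, the third and all others, stacked for replicates 1 and 2 of the 5 genes with several annotated transcripts. The same transcript leads in both libraries in each gene, the leading share of Folr1 is 61.0% and 52.3%, and that of Mthfd2 is 98.6% and 99.3%.

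Mthfd1 (ENSMUSG00000021048, chr12:76255298-76319803, plus strand) encodes the cytosolic enzyme that joins formate to tetrahydrofolate and interconverts the products through its cyclohydrolase and dehydrogenase activities. It was the second most abundant of the 8 genes, at 82.6 TPM in replicate 1 and 85.2 in replicate 2 from 7371 and 6857 expected counts, the most counts of the 8. It ranked 2036 among the 12315 detected protein-coding genes. All of its reads were assigned to a single annotated transcript of 28 exons. Its annotated start in GENCODE lies 66 bases downstream of the RefSeq start and so outside the RefSeq promoter window, which held 16 CpG, 1 CCAAT box and 1 GC box.

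The 4 mitochondrial genes lay on both sides of Mthfd1: Shmt2 lay above it and the other 3 below it in both libraries. Their median was 47.0 TPM in replicate 1 and 47.1 in replicate 2, and against Mthfd1 it stood at -0.83 and -0.86 on the log2 scale, a mean of -0.85 ± 0.027 or 1.80-fold lower. Their summed level was 212.5 and 207.3 TPM against 82.6 and 85.2 for Mthfd1.

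Shmt2 (ENSMUSG00000025403, chr10:127517123-127522444, minus strand) encodes the mitochondrial serine hydroxymethyltransferase, which splits serine into glycine and a folate-bound carbon. It was the highest of the 8 genes, at 95.8 TPM in replicate 1 and 92.2 in replicate 2 from 5850 and 5074 expected counts, and ranked 1812 among detected protein-coding genes. Its cytosolic counterpart Shmt1 was level with it, at 95.9 and 97.2 TPM, so that the pair differed by 0.00 and -0.08 on the log2 scale, a mean of -0.04 ± 0.053. That tie rested on what was counted as Shmt1: 58.3% and 59.2% of Shmt1 TPM lay in protein-coding transcripts, against all of Shmt2. Types were those of GENCODE M21, and a transcript not found there counts as outside the coding share. How much of the rest of Shmt1 was unmatched in this way was not tested. Over protein-coding transcripts only, Shmt2 lay above Shmt1 by 0.73 ± 0.069 on the log2 scale.

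Mthfd2 (ENSMUSG00000005667, chr6:83305691-83325908, minus strand) encodes the mitochondrial dehydrogenase and cyclohydrolase that is known to be abundant in embryos and tumours and low in most adult tissues. It had 53.7 TPM in replicate 1 and 52.4 in replicate 2, from 2920 and 2583 expected counts. Against Mthfd1 it stood at -0.62 and -0.70 on the log2 scale, 1.58-fold lower on the mean, and Shmt2 exceeded it 1.77-fold. The difference to Mthfd1 was -1.37 in expected counts not divided by length. Its paralog Mthfd2l, which performs the same steps and is known from embryos and adult tissue alike, had 21.6 and 22.0 TPM. Mthfd2 exceeded Mthfd2l by 1.31 and 1.25 on the log2 scale, 2.43-fold. A single protein-coding transcript, ENSMUST00000005810.6, held 98.6% and 99.3% of Mthfd2 TPM.

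Shmt2 and Mthfd2 each had a leading transcript that began within 2 bases of the RefSeq start, so their windows are shown for the letters they hold, on the minus strand of GRCm38.p6 with the same motifs in capitals.
Shmt2, chr10:127522395-127522694: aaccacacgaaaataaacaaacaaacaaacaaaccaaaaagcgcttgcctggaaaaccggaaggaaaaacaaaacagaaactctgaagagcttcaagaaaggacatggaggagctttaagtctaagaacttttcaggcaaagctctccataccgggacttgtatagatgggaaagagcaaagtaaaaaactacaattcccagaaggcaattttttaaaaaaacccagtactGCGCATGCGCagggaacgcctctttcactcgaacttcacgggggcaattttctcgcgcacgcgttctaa
Mthfd2, chr6:83317555-83317854: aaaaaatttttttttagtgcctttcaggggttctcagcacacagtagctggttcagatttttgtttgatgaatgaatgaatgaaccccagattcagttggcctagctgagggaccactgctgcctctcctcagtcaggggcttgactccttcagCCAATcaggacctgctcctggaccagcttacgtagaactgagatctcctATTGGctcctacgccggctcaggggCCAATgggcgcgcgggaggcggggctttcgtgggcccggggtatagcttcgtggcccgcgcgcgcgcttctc
The Shmt2 window held a run in which the NRF1 core matched on both strands, 2 overlapping matches, with 13 CpG at 42.7% GC. The Mthfd2 window held 3 CCAAT boxes and 15 CpG. Neither window held an E-box or the ATF4 core, and no window of the 7 genes with an entry in the RefSeq table did. Among the other windows, 1 GC box was found in those of Slc46a1, Mthfd1l and Gldc, a CRE core in that of Mthfd1l and a CCAAT box in that of Gldc.

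Mthfd1l (ENSMUSG00000040675, chr10:3973118-4167081, plus strand) encodes the mitochondrial formyltetrahydrofolate synthetase, the enzyme that releases formate for export to the cytosol. It was the lowest of the 5 enzymes, at 22.7 TPM in replicate 1 and 20.9 in replicate 2 from 2200 and 1842 expected counts. Against Mthfd2, the step before it, Mthfd1l stood at -1.24 and -1.32 on the log2 scale, 2.43-fold lower. Against Mthfd1, the enzyme that takes formate up again, it stood at -1.86 and -2.02, 3.84-fold lower. The first of these gaps was -0.45 in expected counts not divided by length. Both of its main transcripts, which share their region of start, were present in like shares in the 2 pools. ENSMUST00000117291.3 held 68.4% and 70.1% and ENSMUST00000043735.7 held 30.6% and 29.1%.

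Gldc (ENSMUSG00000024827, chr19:30098447-30175429, minus strand) encodes glycine decarboxylase, the subunit of the glycine cleavage system that attacks glycine. It had 40.3 TPM in replicate 1 and 41.7 in replicate 2 from 4077 and 3806 expected counts, all in a single transcript of 25 exons. The 3 other subunits were also present. Amt, the aminomethyltransferase, was lower than Gldc, at 29.5 and 34.1 TPM, a gap of 0.45 and 0.29 on the log2 scale. Gcsh, the lipoyl carrier protein, reached 173.8 and 174.4 TPM and lay 4.24-fold above Gldc, and Dld, a dehydrogenase shared with other mitochondrial complexes, reached 121.7 and 126.8 TPM and lay 3.02-fold above it. In expected counts not divided by length the log2 difference of Gldc to Gcsh was -0.64, against -2.08 ± 0.032 in TPM, that to Dld was -0.83, against -1.60, and that to Amt was 1.29, against 0.37.

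**Figure D3:**
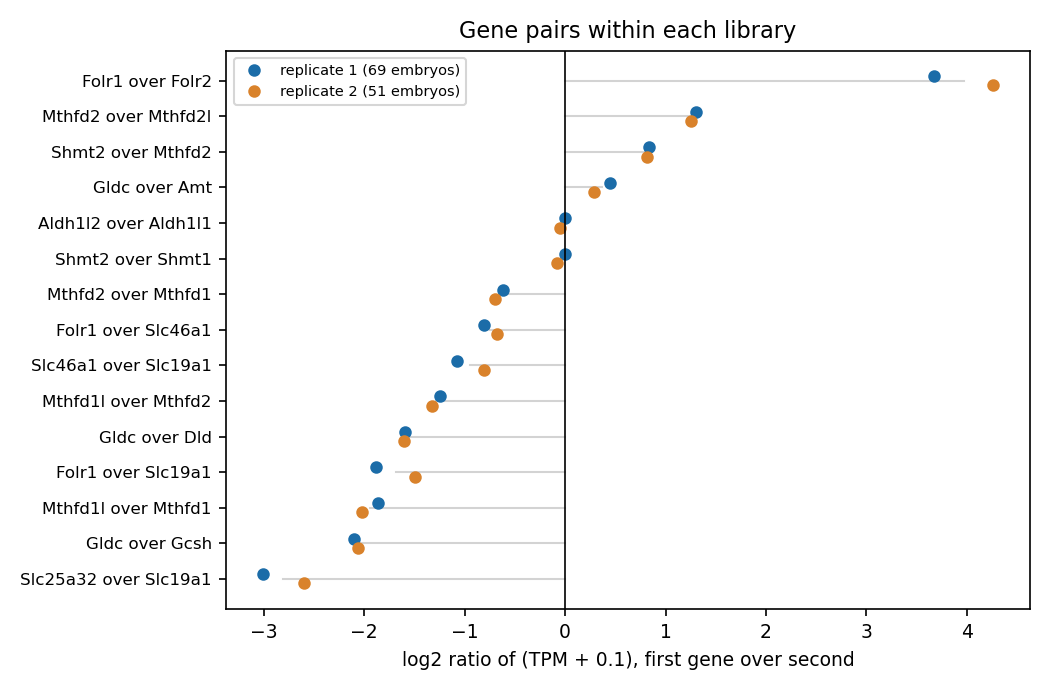
Log2 ratio of (TPM + 0.1) for 15 gene pairs, first gene over second, with a point per library and a line from 0 to the mean. The first gene is higher in both libraries in 4 pairs, Shmt2 over Shmt1 and Aldh1l2 over Aldh1l1 lie at 0, and the points of the 2 libraries lie farthest apart for Folr1 over Folr2.

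The rest of the pathway was read from 7 lists with 75 other genes, of which 64 (85.3%) were detected in both libraries. The share was 32.4% over all annotated genes and 57.3% over protein-coding genes, and the counts of each list stand against the same shares. These lists were made by function, with earlier results of these data known. Of 12 other genes for uptake and retention of folate and cobalamin 9 were detected, with medians of 11.0 and 11.8 TPM. The cobalamin receptor gene Cd320 led at 77.4 and 75.8 TPM, followed by Mmachc, which processes cobalamin, at 38.6 and 40.3. Fpgs, whose enzyme adds the glutamate tail that holds folate in the cell, came next at 24.9 and 23.4 TPM. Slc25a32, the mitochondrial folate carrier, was low at 4.57 and 5.13 TPM, 6.99-fold below Slc19a1. Folr2, Cubn (0.34 and 0.20 TPM) and Izumo1r (0.07 and 0.19 TPM) were under 1 TPM in both libraries.

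Of 11 other cytosolic folate enzymes 10 were detected, with medians of 25.4 and 23.6 TPM. Thymidylate synthase, Tyms, led at 291.5 and 285.8 TPM, followed by Gart at 129.3 and 133.7 and Shmt1. Only 11.2% and 11.6% of Tyms TPM lay in transcripts that GENCODE M21 lists as protein-coding, 32.54 and 33.15 TPM. Counted in that way Tyms did not lead, and lay below Gart at 128.6 and 133.0 TPM and Shmt1 at 55.9 and 57.6. A transcript not found in M21 counts as outside the coding share. How much of the rest of Tyms was unmatched in this way was not tested. Ftcd, a liver enzyme of histidine breakdown, had 1 count in each library.

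Of 13 other mitochondrial folate and glycine cleavage genes 12 were detected, with medians of 20.6 and 21.3 TPM, led by Gcsh, Dld and Lias, the lipoic acid synthase, at 80.3 and 85.2 TPM. Of Lias TPM 64.4% and 64.9% lay in transcripts protein-coding in M21, 51.7 and 55.2 TPM, with any unmatched transcripts left out. Counted in that way Lias lay below Sfxn1, a mitochondrial serine transporter gene, at 79.5 and 78.5 TPM. Dmgdh, at 0.01 and 0.12 TPM, was under 1 TPM in both. The formyltetrahydrofolate dehydrogenases that burn off single-carbon units were low in both compartments. The mitochondrial Aldh1l2 had 1.48 and 1.74 TPM and the cytosolic Aldh1l1 1.48 and 1.80, a difference of -0.02 ± 0.033 on the log2 scale that turned to 0.28 over protein-coding transcripts only and to 1.24 in expected counts not divided by length.

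The genes of serine synthesis, which supplies single-carbon units, and of purine synthesis, which uses them, had higher medians than the 8 genes in both libraries. All 3 serine synthesis genes were detected, with medians of 134.0 and 122.0 TPM and with Phgdh at 368.8 and 343.1 TPM, Psat1 at the median and Psph at 38.5 and 37.7. All 12 genes of de novo purine synthesis were detected, with medians of 66.7 and 70.4 TPM, led by Paics at 461.1 and 480.5, Impdh2 at 207.9 and 223.3 and Adsl at 157.1 and 161.1. Of Adsl TPM 54.3% and 55.1% lay in transcripts protein-coding in M21, 85.3 and 88.8 TPM, with any unmatched transcripts left out. Counted in that way Adsl lay below Gart, at 128.6 and 133.0 TPM. Purine synthesis uses formyl-folate at the steps of Gart and Atic, which stand in both this list and that of the cytosolic enzymes.

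Of 15 methionine cycle and transsulfuration genes 10 were detected, near the share of 57.3% over protein-coding genes, with medians of 8.20 and 7.64 TPM. Mat2a, which makes S-adenosylmethionine outside the liver, led at 371.3 and 365.0 TPM, ahead of Mtap at 116.7 and 125.5 and Ahcy at 96.7 and 97.8. The remaining 5 did not reach 1 TPM in either library. Gnmt had 0.73 and 0.68 TPM, Bhmt2 0.09 and 0.14 and Chdh 0.02 in both libraries. Mat1a, the liver form of the Mat2a enzyme, and Bhmt, a betaine enzyme, had 0 counts in both libraries, and since a count of 0 allows up to 3 counts, their levels were at most 0.0349 and 0.0359 TPM in replicate 1 and 0.0387 and 0.0398 in replicate 2, counting error only.

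**Figure D4:**
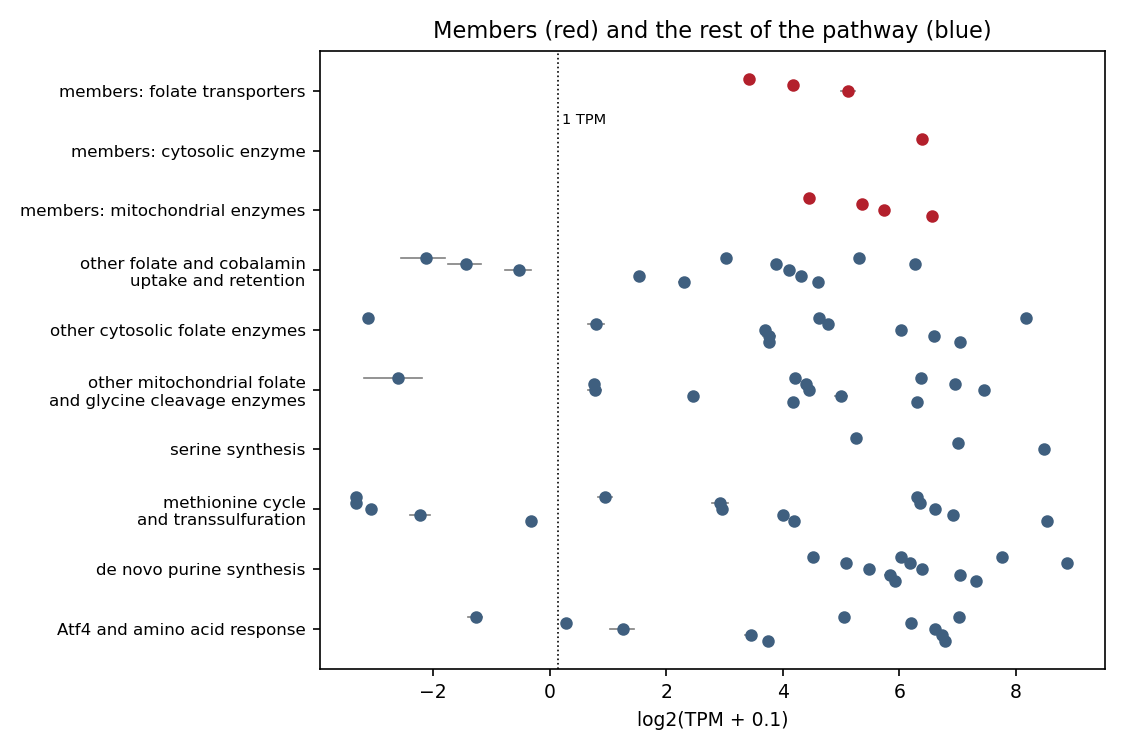
Log2(TPM + 0.1) of the 8 folate genes (red) and of the other genes of the pathway (blue), a row per list, with the mean of 2 libraries as a point, the range between them as a line, and a dotted line at 1 TPM. All 8 red points and 64 of the 75 other genes lie to the right of the dotted line, and Gart and Atic appear in 2 rows.

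Between the pools the 8 genes were close. Ratios of replicate 2 to replicate 1 were taken from expected counts after TMM scaling, with 95% counting intervals. None of the 8 was more than 2-fold apart, where 0.585% of the 13842 genes averaging at least 50 counts were. None of the 64 other pathway genes past that count was either. The log2 ratios ran from -0.17 for Slc19a1 to 0.13 for Folr1. Of the 8 counting intervals 3 lay entirely below 0, those of Slc19a1 (-0.26 to -0.07), Mthfd1l (-0.21 to -0.03) and Shmt2 (-0.12 to -0.01). These signs hold for TMM, DESeq2 and total-count scaling, with 5 of 8 ratios below 0, and not for scaling on spike-in counts, which moved every ratio up by 0.17 on the log2 scale and left 0 of 8 below 0.

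Counting intervals do not include the spread between pools, which set the scale for these ratios. Across 16637 genes the biological coefficient of variation came to 6.59%. Among genes whose mean count was within 1.5 times that of Slc19a1, 11.5% were at least as far from 0. The same share was 22.7% for Mthfd1l, 30.8% for Shmt2 and 60.2% to 71.6% for the other 5 genes. Slc19a1 and the erythroid markers were both lower in replicate 2, the latter by their sum of 17376 against 12868 TPM, and whether red cells in the dissected tissue contributed to Slc19a1 was not tested.

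**Figure D5:**
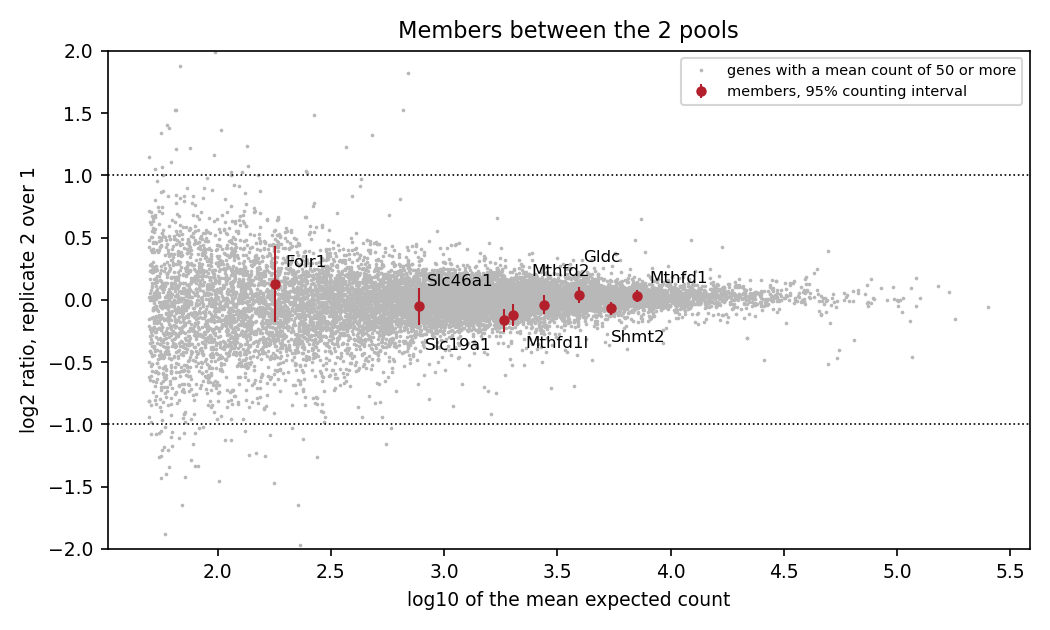
Log2 ratio of replicate 2 over replicate 1 against log10 of the mean expected count, with grey points for genes averaging at least 50 counts, red points with 95% counting intervals for the 8 folate genes and dotted lines at 2-fold. The 8 red points lie between -0.17 and 0.13 inside the grey cloud, and 8 grey genes fall beyond the axis.

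The counts of the 8 genes shared little with other annotated genes. All 8 had whole-number expected counts in both libraries, where genes whose reads were divided with another gene can have fractions, as Shmt1 did with 5251.4 and 4912.7. Exons of Shmt2 overlapped those of Ndufa4l2 on the opposite strand over 32 of 3109 bases, and Ndufa4l2 had 41 and 46 counts. Exons of Mthfd1 overlapped those of Gm47525, a noncoding gene on the opposite strand, over 37 of 4442 bases. Gm47525 is not among the deposited genes and so has no counts of its own. The sources used here do not give whether strand was used in counting, so reads in those stretches cannot be told apart.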

How the data were processed

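Total RNA (mirVana extraction, spike-ins added, per the labels) was sequenced as 2 libraries of 1 group. For each library the authors deposited tables of genes and of transcripts, with expected counts (estimated reads per feature, not normalized), TPM (shares adjusted for length, taken over all 69691 rows with the spike-ins) and, per transcript, the percent of its gene's TPM, per the file headers. Bounds of TPM intervals were used as deposited. The README notes deposited with the samples give mm10 and annotation M4. The column names are those of RSEM. Aligner, quantifier, strandedness and priming: not given in the sources used here.

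Symbols matched 42462 of 43346 Ensembl rows. The 26248 rows with a bare number and 97 spike-in or phage rows (7.83% and 7.01% of TPM) entered no gene comparison. Gene positions (1-based) come from GENCODE M21 on GRCm38, which is mm10, with transcripts matched by identifier without version. Transcript types are also those of M21, and transcripts of M4 not found in M21 were left out of the protein-coding share. For genes outside the 8, the TPM of such unmatched transcripts was not separated from that of noncoding ones. Promoter sequences are from RefSeq on GRCm38.p6. Differences within a library used log2(TPM + 0.1). Expected counts were rounded for TMM factors and the common dispersion in edgeR 4.0.16 (R 4.3.3), over genes that had at least 10 counts in both libraries. DESeq2 1.42.0 gave size factors only. Library ratios used unrounded expected counts plus 0.5, with 95% exact binomial intervals, and genes of similar count were those within 1.5 times a gene's mean count. The rest was done in Python 3.11.15 (pandas 2.3.3, numpy 2.4.6, matplotlib 3.10.9, scipy 1.17.1). The ratio step was tested on simulated data.

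The 8 genes, the lists and the pairs were chosen with earlier results of these data known. Named genes were the 8, both genes of 15 pairs, and in each list the 3 of highest mean TPM and all under 1 TPM in both libraries. In marker lists they were the sum and the leading gene, most of which are not printed here. Kl, Aqp1, Foxd3, Ndufa4l2 and Sfxn1 fall outside this rule and were chosen after their values were seen. The same holds for the remaining genes of the Atf4 list, which were added so that the list is named in full. Some planned results are not reported here.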

Additional observations from a re-analysis of the deposited data

How the results depend on the processing

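Detection of the 8 genes, their order, their leading transcripts and the absence of 2-fold differences between libraries held under each alternative that was run for them, 0.5 and 5 TPM and 1.5-fold included. Detection at 0.5 TPM or in a single library could not have failed, nor could the ratios without a count filter. A gene with a single annotated transcript could not change its leading transcript. The order was not run in expected counts not divided by length. There Mthfd1 lay above Shmt2, Gldc above Mthfd2 and Mthfd1l above Slc19a1 in both libraries. Of the other pathway genes 64 were detected at 1 TPM, 65 at 0.5 and 56 at 5. The median level of the 8 genes moved from 37.8 to 40.8 TPM when TPM was rescaled over annotated genes, and ran from 36.7 to 38.9 with either replicate left out, which leaves 1 library and a value with no spread. The enzyme minus carrier difference of 1.56 on the log2 scale was 1.52 with a pseudocount of 1, 2.35 in expected counts not divided by length and 1.46 as a mean over members. The mitochondrial minus Mthfd1 difference of -0.85 became -1.11 in undivided counts. The sign turned for Shmt2 over Shmt1 (0.10 in undivided counts, 0.73 over protein-coding transcripts) and for Aldh1l2 over Aldh1l1 (1.24 and 0.28). Of the remaining values for single genes and pairs 129 moved by less than the SD between libraries and 27 by more, with no other pair changing sign. The 129 include the values with either replicate left out, which lie within that SD by construction. The first gene was higher in 4 of 15 pairs, and in 6 under those 2 settings. No paired analysis was possible because the 2 libraries form 1 group. Depth limits Folr1 most, with 180 and 179 counts.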

Other observations

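Mthfd2, Shmt2 and the serine synthesis genes are known targets of the amino acid response factor Atf4, so a list of that response was read as values. Of 11 genes 10 were detected in both libraries, against 57.3% of protein-coding genes, with medians of 31.7 and 34.5 TPM. Nars led at 128.4 TPM in replicate 1 and 131.7 in replicate 2, followed by Eif4ebp1 at 105.2 and 113.7 and Atf4 itself at 109.9 and 101.4. Aldh18a1, Asns and Pycr1 came next, at the median or above. Below the median were Ddit3 at 13.8 and 12.8 TPM, Sesn2 at 10.1 and 11.6, Trib3 at 1.95 and 2.64 and Chac1 at 1.17 and 1.07. Whether the response was active was not tested. Cebpb, at 0.28 and 0.35 TPM, was under 1 TPM in both libraries. None of the 9 genes of this list with a mean count of 50 or more was over 2-fold apart between libraries. Over all genes past that count the share was 0.585%, so the absence is not particular to this list.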
